A study of Homo sapiens with 3 samples.

Results

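The eicosanoid synthesis genes described here are 10 genes of arachidonic acid release and prostaglandin and leukotriene metabolism, *PLA2G4A*, *PLA2G4C*, *PTGS1*, *PTGS2*, *PTGES*, *PTGES2*, *PTGES3*, *ALOX5*, *HPGD* and *PTGR1*. They were found on the arrays as the probes whose RefSeq accession belongs to one of these symbols. This gave 11 probes of 58201 on the array and 10 genes of 22439 with a RefSeq symbol. The set was chosen partly on the signals of these same arrays, in which the large change of *PLA2G4C* was already known, so all values below are a description.

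The cells were A549, an established line from a human lung adenocarcinoma (LUAD), an epithelial tumor. Mock cells received only the transfection reagent, Lipofectamine RNAiMAX. The other cells received, with the same reagent, a precursor of either *miR-139-5p* or *miR-139-3p*, the strands of one hairpin, at one dose for both according to the methods of the study. The time between transfection and RNA extraction for the arrays was not given in the sources used here. Total RNA of each condition was labelled with Cy3 and read on 1 Agilent array of 1 colour, so there are 3 arrays in all and 0 replicates of a condition. No test was possible and no p-value is given, and the small number of arrays limits the precision. The array of *miR-139-3p* was alone on slide 2, apart from the others on slide 1, and slide and *miR-139-3p* transfection cannot be told apart. Both comparisons with mock use the same mock array.

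Cytosolic phospholipases A2 cut arachidonic acid from membrane phospholipids. The cyclooxygenases PTGS1 and PTGS2 turn it into prostaglandin H2, and the prostaglandin E synthases turn that into prostaglandin E2, a lipid signal often raised in lung adenocarcinoma. 5-Lipoxygenase starts the separate leukotriene branch, and HPGD and PTGR1 act in turn to inactivate prostaglandins.

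The transfected strands are shown because they are what differs between the arrays, and a miRNA recognizes its targets mainly through its seed. Capitals mark the seed, bases 2 to 8 from the 5′ end, and both strands come from the gene *MIR139* on the minus strand of chromosome 11 (sequences from RefSeq, GRCh38.p14).
hsa-miR-139-3p, chr11:72615066-72615088: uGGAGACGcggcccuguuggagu
hsa-miR-139-5p, chr11:72615102-72615124: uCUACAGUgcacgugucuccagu
Each strand has 23 bases. Their seeds, GGAGACG and CUACAGU, differ. Target sites in the members' transcripts were not analysed here.

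Between 48.1% and 53.1% of the 60901 non-control spots of an array were well above background, and 0 spots were saturated. The epithelial markers *KRT8*, *KRT18*, *KRT19*, *EPCAM* and *CDH1* were well above background on all 3 arrays. Among the markers of blood, endothelial and connective tissue cells given here, *PECAM1* and *COL3A1* were not well above background on any array. *CD3E* was so only on the *miR-139-3p* array. *PTPRC* and *VWF* rest on dim probes. The log2 fold change of *PTPRC* against mock was 1.26 after *miR-139-3p*, but 0.30 at the lowest over the settings tried, and 0.31 after the other strand. That of *VWF* was 1.05 after *miR-139-3p*, but 0.24 at the lowest, and it was at least 1.16-fold lower after the other strand. *COL1A1* had a signal of 40.1 in mock, 101 with *miR-139-5p* and 22.7 on the *miR-139-3p* array. Whether these markers have a part in the results below was not tested.

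Signals below are the spot intensities of Feature Extraction, in arbitrary units with background subtracted, each with the error that Feature Extraction gives for that spot. Log2 fold changes are differences of log2 signals after each array was divided by its 75th percentile, which lay at 93.6 on the mock array, at 88.9 on that of *miR-139-5p* and at 81.0 on that of *miR-139-3p*. A probe reads 1 RNA with its own affinity, so levels were never compared between genes. All members but *PTGS1* were read by 1 probe. The error of a log2 fold change below combines the errors of both spots and holds no spread between cultures. For *PLA2G4A*, which has several spots, it combines the SD between spots on both arrays instead, and is not on the same footing as the error of the other members. As another scale for it, genes read by several probes had a median SD between probes of 0.28 in the comparison of *miR-139-3p* with mock and of 0.15 in that of *miR-139-5p*. A gene was called lower or higher when its log2 fold change was past 0.5 in size.

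*PLA2G4C* encodes cytosolic phospholipase A2 gamma, a membrane-bound form that works without calcium. Its signal was 18.8 ± 2.11 in mock cells, 7.22 ± 1.26 with *miR-139-5p* and 247 ± 24.7 on the *miR-139-3p* array (error of the spot, 1 array each). The probe was well above background on all 3 arrays, lowest with *miR-139-5p*, where it was dim, and highest with *miR-139-3p*. Relative to mock, it was 15.2-fold higher with *miR-139-3p*, a log2 fold change of 3.93 with an error of 0.22. It was at 40.5% of mock with *miR-139-5p*, a log2 fold change of -1.30 with an error of 0.30. Between the transfected arrays the ratio was 37.6-fold, or 5.23 on the log2 scale. With normexp background correction, which adds an offset of 50 to every signal, these log2 fold changes were 2.28, -0.22 and 2.50, so the lower value with *miR-139-5p* did not pass 0.5 in that setting. Its direction was the same in every setting run.

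Among the 14376 genes measured on both arrays with *miR-139-3p* and mock, only *GRIN2C*, a glutamate receptor subunit, had a higher log2 fold change than *PLA2G4C*, at 4.69. With *miR-139-5p*, 129 of 14311 genes lay below *PLA2G4C*.

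*PLA2G4A* encodes cytosolic phospholipase A2 alpha, the calcium-dependent form that prefers arachidonic acid. It is the 1 member printed as 10 spots per array. In mock these spots ran from 489 to 529 with a median of 507. With *miR-139-5p* they ran from 579 to 661 with a median of 637, and with *miR-139-3p* from 114 to 129 with a median of 119. These are signals before scaling, and spots of one array share its RNA and are not replicates. *PLA2G4A* was at 27.3% of mock with *miR-139-3p*, a log2 fold change of -1.88 with an error between spots of 0.07. With *miR-139-5p* it was at 0.38 with an error between spots of 0.07, below the threshold, and at 0.51 with scaling to E1A, the spike-in RNA added to each sample. So the phospholipases differed in direction on the *miR-139-3p* array, with *PLA2G4C* above and *PLA2G4A* below mock.

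**Figure D1:**
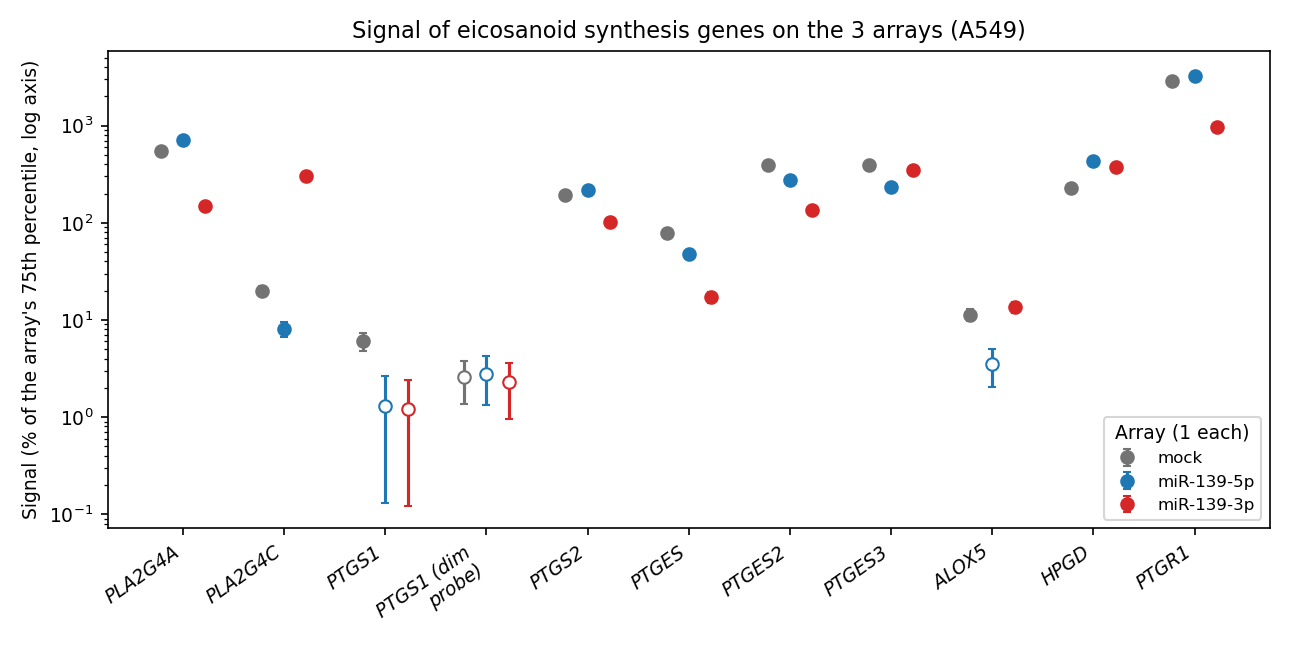
Signal of each member probe on each array (mock; *miR-139-5p*; *miR-139-3p*), given as a percent of the 75th percentile of that array, on a log axis, 1 point per array. Open points were not well above background; bars are the error of the spot or, for *PLA2G4A*, the SD between its 10 spots, and the lower bars of the brighter *PTGS1* probe were cut where they would reach 0. *PLA2G4C* stood at 20.1% in mock, 8.12% with *miR-139-5p* and 305% on the *miR-139-3p* array, while *PLA2G4A* stood at 543%, 707% and 148%; the spots of *ALOX5* and of the dim *PTGS1* probe on the *miR-139-3p* array were marked as outliers.

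Of the cyclooxygenases, *PTGS2* encodes the inducible form and *PTGS1* the form most cells carry constantly. The signal of *PTGS2* was 183 ± 18.3 in mock, 192 ± 19.3 with *miR-139-5p* and 82.2 ± 8.27 on the *miR-139-3p* array. It was lowest with *miR-139-3p*, at 52.0% of mock and a log2 fold change of -0.94 with an error of 0.20. The mock and *miR-139-5p* arrays differed by 0.15 on the log2 scale, less than the error of 0.20.

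*PTGS1* was near the limit of detection. Its brighter probe had 5.66 ± 1.19 in mock, 1.16 ± 1.17 with *miR-139-5p* and 0.978 ± 0.981 on the *miR-139-3p* array. It was well above background only in mock. The other probe, at 2.40 in mock, 2.48 with *miR-139-5p* and 1.84 on the *miR-139-3p* array, was not well above background on any array. The values are therefore bounds, at least 1.13-fold lower with *miR-139-3p* and at least 1.05-fold lower with *miR-139-5p*. A bound of this kind divides the signal on the brighter array by that of the dim probe or, where this is higher, by the weakest signal still well above background on the dim array. No value was possible between the transfected arrays. For *miR-139-3p* against mock, the log2 value of *PTGS1* was -0.18, but -0.75 with quantile normalization and -0.76 in the deposited values. With no filter on dim probes it was -2.32. In these settings *PTGS1* passed the threshold and 6 members were lower.

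Of the 3 prostaglandin E synthases, *PTGES* and *PTGES2* were lowest with *miR-139-3p*, and *PTGES3* was lowest with *miR-139-5p*. *PTGES*, the microsomal enzyme that often works together with PTGS2, had 72.9 ± 7.37 in mock, 42.1 ± 4.38 with *miR-139-5p* and 13.9 ± 1.71 on the *miR-139-3p* array. It was below mock on both transfected arrays, and more so with *miR-139-3p*. It was 4.55-fold lower than mock with *miR-139-3p*, at a log2 fold change of -2.18 with an error of 0.23. On the *miR-139-5p* array it was at 60.9% of mock, or -0.72 with an error of 0.21. With normexp these log2 fold changes were -0.75 and -0.35.

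*PTGES2*, a membrane-associated prostaglandin E synthase, had 369 ± 36.9 in mock, 244 ± 24.4 with *miR-139-5p* and 110.0 ± 11.1 on the *miR-139-3p* array. The arrays stood in the same order as for *PTGES*. It was at 34.5% of mock with *miR-139-3p*, a log2 fold change of -1.54. On the *miR-139-5p* array the value of -0.52 with an error of 0.20 lay at the threshold, and it reached only -0.40 with scaling to E1A.

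*PTGES3*, the cytosolic synthase also known as the HSP90 co-chaperone p23, had 367 ± 36.7 in mock, 206 ± 20.6 with *miR-139-5p* and 280 ± 28.0 on the *miR-139-3p* array. Here the lowest array was *miR-139-5p*, at 59.0% of mock and a log2 fold change of -0.76. The value with *miR-139-3p*, -0.18, was within its error of 0.20. Between the transfected arrays *PTGES3* was 0.58 higher with *miR-139-3p* on the log2 scale, but this ran from 0.21 to 0.78 over the settings.

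*ALOX5*, 5-lipoxygenase, was dim. Its signal was 10.6 ± 1.53 in mock, 3.11 ± 1.31 with *miR-139-5p* and 11.0 ± 1.52 on the *miR-139-3p* array. It was not well above background with *miR-139-5p*, which gives a bound of at least 1.95-fold lower than mock, or -0.97 on the log2 scale. With normexp this value was -0.10, inside the threshold. The *miR-139-3p* spot was marked as an outlier by Feature Extraction and left out, so this comparison has no value. With such spots kept the log2 fold change was 0.27, and in the deposited log2 values it was -0.20.

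The inactivating enzymes moved apart on the *miR-139-3p* array. *HPGD*, the dehydrogenase that takes the first step of prostaglandin breakdown, had 212 ± 21.2 in mock, 383 ± 38.3 with *miR-139-5p* and 302 ± 30.3 on the *miR-139-3p* array. Both transfected arrays were above mock, at 1.91-fold with *miR-139-5p* and 1.65-fold with *miR-139-3p*. The log2 fold changes were 0.93 and 0.72, each with an error of 0.20, and the latter reached only 0.48 with the E1A scaling by the median difference over probes. The transfected arrays differed from each other by -0.21 on the log2 scale, with an error of 0.20 and a value near 0 in another setting.

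*PTGR1*, prostaglandin reductase 1, reduces the products of HPGD and also acts on leukotriene B4. Its signal was 2693 ± 269 in mock, 2849 ± 285 with *miR-139-5p* and 792 ± 79.2 on the *miR-139-3p* array. Mock and *miR-139-5p* differed by 0.16 on the log2 scale, less than the error of 0.20. With *miR-139-3p* it was at 34.0% of mock, a log2 fold change of -1.56.

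**Figure D2:**
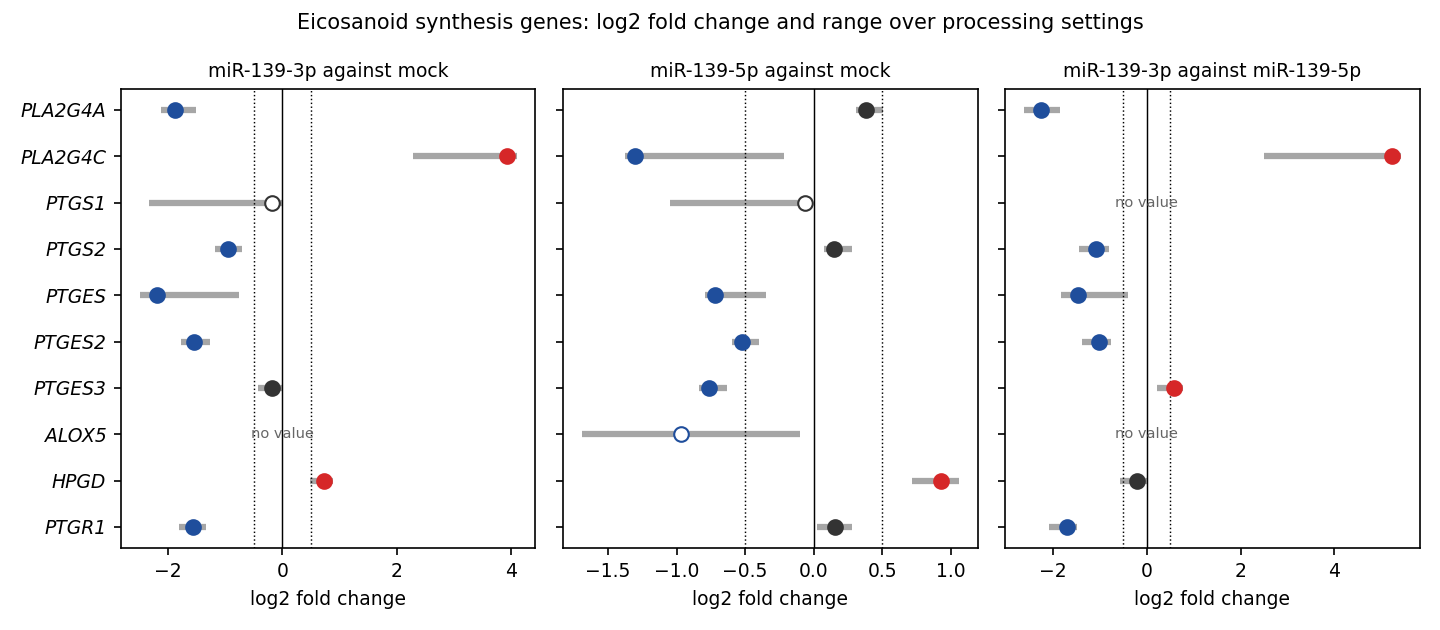
Log2 fold change of each member in the 3 comparisons (note the different horizontal scales), 1 array per condition, with filled points for measured values, open points for bounds and dotted lines at 0.5 and -0.5. Grey bars span the lowest and highest value over the other processing settings: *PLA2G4C* ran from 2.28 to 4.10 with *miR-139-3p* against mock and from -1.38 to -0.22 with *miR-139-5p*, and *PLA2G4A* from -2.11 to -1.51 and from 0.31 to 0.51.

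When *miR-139-3p* was compared with mock, 9 members had a value, 8 of them measured on both arrays. *PLA2G4A*, *PTGS2*, *PTGES*, *PTGES2* and *PTGR1* were lower, which is 5 of 9 or 55.6%, against 27.9% of all 15572 genes with a value. *PLA2G4C* and *HPGD* were higher, 2 of 9 or 22.2%, against 26.5% of all genes. The median of the measured members was -1.24, and the median of all 14376 measured genes was -0.09. With a threshold of 1, 4 members were lower and 1 was higher, against 11.8% and 12.3% of all genes. As the members were chosen with these arrays known, nothing was read from these shares.

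For *miR-139-5p* against mock all 10 members had a value, 8 of them measured. *PLA2G4C*, *PTGES*, *PTGES2*, *PTGES3* and, as a bound, *ALOX5* were lower, 5 of 10, against 12.3% of all 15016 genes. *HPGD* alone was higher, against 10.7% of all genes. The median of the measured members was -0.19 and that of all measured genes was 0.00. With normexp the number lower was 1. With a threshold of 1, *PLA2G4C* alone was lower and 0 members were higher, against 2.37% and 1.92% of all genes.

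Between the transfected arrays, *miR-139-3p* against *miR-139-5p*, 8 members had a value and all 8 were measured. *PLA2G4A*, *PTGS2*, *PTGES*, *PTGES2* and *PTGR1* were lower with *miR-139-3p*, 5 of 8 or 62.5%, against 27.9% of all 15428 genes. Of these, *PLA2G4A* had the lowest value, -2.26, followed by *PTGR1* at -1.71, *PTGES* at -1.47, *PTGS2* at -1.09 and *PTGES2* at -1.01. *PLA2G4C* and *PTGES3* were higher, against 26.4% of all genes. With a threshold of 1, 5 were lower and 1 was higher, against 12% and 12.8% of all genes.

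**Figure D3:**
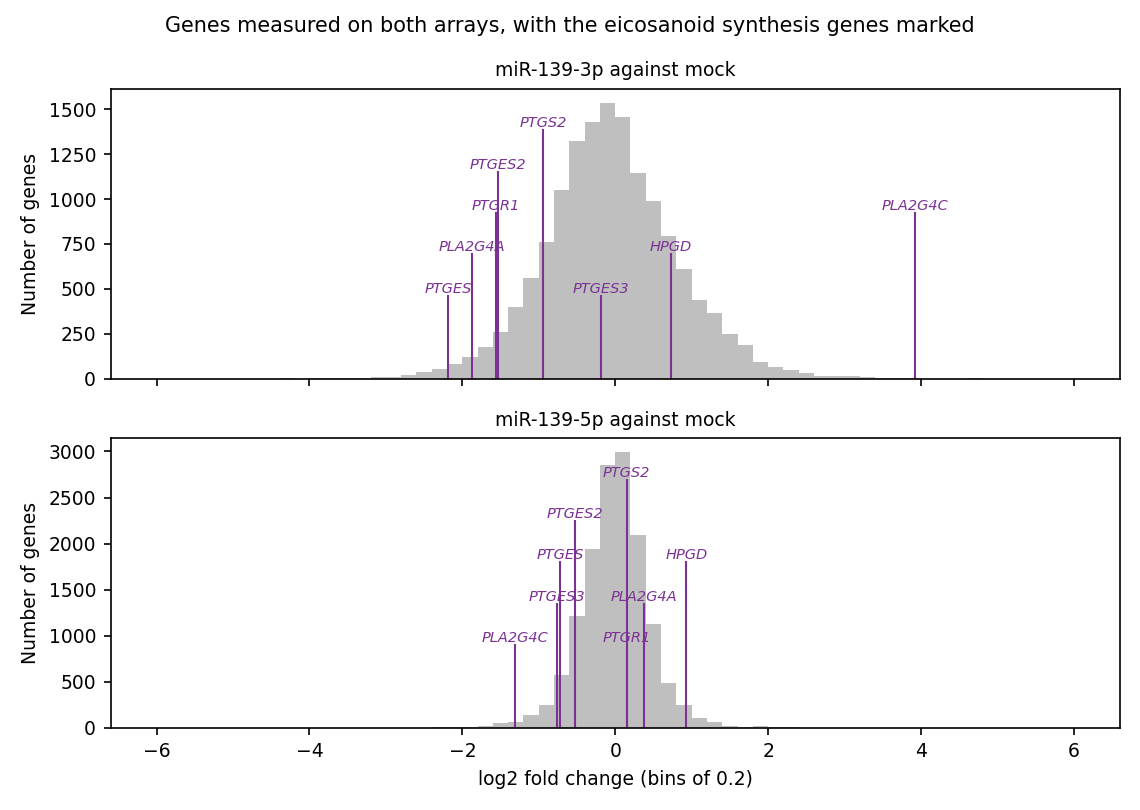
Number of genes measured on both arrays by log2 fold change, in bins of 0.2, for *miR-139-3p* against mock (above) and *miR-139-5p* against mock (below), with vertical lines at the members measured on both arrays; the heights of the lines only spread the names. *PLA2G4C* lay at 3.93 in the far right tail above and at -1.30 in the left tail below, and the spread of all genes was wider for *miR-139-3p* (SD 0.87) than for *miR-139-5p* (SD 0.45).

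The wider pathway was followed in 84 further genes in 7 lists by role, of which 82 had a probe. With *miR-139-3p*, 56 had a value against mock. Of these, 21 were lower (37.5%, against 27.9% of all genes), 18 were higher (32.1%, against 26.5%) and 17 lay within the threshold, with a median of the measured genes of -0.25. Of the 18 higher, 13 were measured on both arrays, several of them from dim signals, and the rest are bounds. With *miR-139-5p*, 51 had a value, of which 12 were lower (23.5%, against 12.3% of all genes), 5 were higher (9.80%, against 10.7%) and 34 lay within the threshold, with a median of -0.05.

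Genes of the cytochrome P450 and epoxide hydrolase branch, which oxidizes arachidonic acid and opens the epoxides, had the lowest median of the 7 lists on both transfected arrays. With *miR-139-3p*, 6 of 8 were lower and 2 higher, against 27.9% and 26.5% of all genes, with a median of -1.30. Of the 6, *CYP4F2*, named after its value was seen, was at -1.22 from its bright probe and at 0.81 when its dim probe was counted too. With *miR-139-5p*, 5 of 8 (62.5%, against 12.3%) were lower and 1 higher, against 10.7%, with a median of -0.52. Of these 5, *CYP4F2* and *CYP4F11*, each at -0.52, lay at the threshold. They came to -0.15 and -0.16 at the highest over the settings tried. The medians of this list on the transfected arrays share the mock array.

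*CYP4F11*, a fatty acid omega-hydroxylase, was read by 2 probes. The brighter had 155 in mock, 131 with *miR-139-5p* and 28.1 on the *miR-139-3p* array. The other had 31.5, 16.3 and 6.22 in the same order. Both were lowest with *miR-139-3p*, and the log2 fold change over both was -2.19 with an SD of 0.09 between probes. Its relative *CYP4F12*, with signals of 72.9, 40.6 and 14.4, had a log2 fold change of -2.14 (*miR-139-3p*) or -0.77 (*miR-139-5p*). With normexp the *miR-139-3p* values were smaller, -0.81 for *CYP4F11* and -0.77 for *CYP4F12*. The *CYP4F* genes are close copies of each other, and whether a probe also bound RNA of a neighbour was not tested.

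The epoxide hydrolases *EPHX2*, the soluble form, and *EPHX1*, the microsomal form, were both below mock on the transfected arrays. *EPHX2* had 319 in mock, 188 with *miR-139-5p* and 103 on the *miR-139-3p* array, where the log2 fold change was -1.43. *EPHX1* had 1030.5 in mock, 430 with *miR-139-5p* and 369 on the *miR-139-3p* array, or -1.19 and -1.27 as log2 fold changes. The bound of *CYP2J2*, an epoxygenase named here after its value was seen, went the other way, at least 3.55-fold higher with *miR-139-3p*, or 1.83 on the log2 scale. It was 0.35 with normexp, which does not pass the threshold.

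Terminal prostanoid synthases and reductases were lower in 5 of 7 (71.4%, against 27.9% of all genes) and higher in 0 of 7 genes (against 26.5%) with *miR-139-3p*, with a median of -0.61. Among the 5 are *TBXAS1*, *AKR1C3* and *PRXL2B*, named after their values were seen. *TBXAS1* was at -1.08 over probes at -0.07 and -2.08. *AKR1C3* (-0.61) and *PRXL2B* (-0.51) came to -0.44 and -0.34 at the highest over the settings tried, inside the threshold. *CBR3*, a carbonyl reductase, had 233 in mock, 190 with *miR-139-5p* and 60.7 on the *miR-139-3p* array, a log2 fold change of -1.73. *AKR1B1*, an aldo-keto reductase that can make prostaglandin F2 alpha, had 39627 in mock, 41724 with *miR-139-5p* and 12515 on the *miR-139-3p* array, a log2 fold change of -1.45. In both, *miR-139-3p* was the low array. With *miR-139-5p*, 1 of 6 genes of this list was lower (16.7%, near the 12.3% of all genes), the prostaglandin D synthase *PTGDS*, with 38.8 in mock, 17.1 with *miR-139-5p* and 25.2 on the *miR-139-3p* array. Its value against mock was -1.11 on the log2 scale. *PRXL2B* had no value there because its *miR-139-5p* spot was marked as an outlier. With such spots kept it was at -1.01.

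Among the other phospholipases and release genes, 5 of 9 (55.6%, against 26.5% of all genes) were higher and 1 lower (11.1%, against 27.9%) with *miR-139-3p*. The 5 were *PLA2G6*, *PLA2G4F* and, named after their values were seen, *ANXA1*, *PLA2G10* and, as a bound, *PLA2G1B*. *ANXA1* is not a phospholipase. *PLA2G4F* was dim, with 6.97 in mock and 9.79 with *miR-139-3p*. *PLA2G10* was at 0.73, and another probe of it, left out for an outlier spot in mock, was at 0.01. The largest measured rise in the wider pathway was that of *PLA2G6*, a calcium-independent phospholipase A2, with 75.9 in mock, 60.9 with *miR-139-5p* and 146 on the *miR-139-3p* array. Its log2 fold change was 1.15. It was smaller than that of *PLA2G4C*. With *miR-139-5p*, 2 of 8 were lower and 1 higher, against 12.3% and 10.7% of all genes. The higher one was *PLA2G4F* at 0.54, a dim gene with 6.97 in mock and 9.63 with *miR-139-5p*, whose value was -0.26 when its other, dimmer probe was counted too.

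Genes that activate arachidonic acid and return it to phospholipids were lower in 4 and higher in 1 of 9 genes with *miR-139-3p*, against 27.9% and 26.5% of all genes. On the *miR-139-5p* array 1 of 9 was lower and 2 were higher, against 12.3% and 10.7%. *ACSL5*, a long-chain acyl-CoA synthetase, had 50.2 in mock, 21.5 with *miR-139-5p* and 81.1 on the *miR-139-3p* array. It was the 1 gene higher in this list with *miR-139-3p*, at 0.90, and the 1 lower with *miR-139-5p*, at -1.15. Those higher with *miR-139-5p* were *ACSL4*, the acyl-CoA synthetase that prefers arachidonic acid, at 0.67 (86.7 in mock, 131 with *miR-139-5p*), and *LPCAT1*, a lysophospholipid acyltransferase, at 0.51 (77.5 and 105).

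With *miR-139-3p*, 2 of 10 lipoxygenase and leukotriene genes were lower and 4 were higher, against 27.9% and 26.5% of all genes. On the *miR-139-5p* array 2 of 9 were lower and 0 higher, against 12.3% and 10.7%. The 4 higher with *miR-139-3p*, named after their values were seen, were dim. *ALOX15B* had 10.8 in mock and 15.5 with *miR-139-3p*, *ALOX12B* 8.03 and 10.8, and *ALOXE3* 6.93 and 9.69. The value of *ALOX15* is a bound. Among 4 genes of inactivation and transport, 1 was lower and 1 higher on the *miR-139-3p* array, shares near the 27.9% and 26.5% of all genes. None of the 4 passed the threshold with *miR-139-5p*.

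Of the receptors, 5 of 9 (55.6%, against 26.5% of all genes) were higher and 2 lower (22.2%, against 27.9%) with *miR-139-3p*, and 3 of the 9 values are bounds. On the *miR-139-5p* array 1 of 7 was higher and 1 lower, shares of 14.3% that lie near the 10.7% and 12.3% of all genes. The leukotriene B4 receptor *LTB4R2*, with 37.5 in mock, 33.6 with *miR-139-5p* and 68.9 on the *miR-139-3p* array, was at 1.08 after *miR-139-3p*. The other leukotriene B4 receptor, *LTB4R*, with 57.7, 27.4 and 83.5 in the same order, was at 0.74. *LTB4R* was at 50% of mock on the *miR-139-5p* array. *OXER1*, a receptor for an oxidized 5-lipoxygenase product, was at 0.76 with *miR-139-3p*, from dim signals of 9.32 in mock and 13.7. *PTGFRN*, the 1 higher in this list with *miR-139-5p*, was at 0.66 (148 in mock, 221 with *miR-139-5p*). It encodes a negative regulator of the prostaglandin F2 receptor and is not itself a prostanoid receptor.

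The receptors that were lower with *miR-139-3p*, named after their values were seen, were *PTGER4* and *PTGER2*, which bind prostaglandin E2. The other prostaglandin E2 receptors, *PTGER1* and *PTGER3*, were not well above background on any array and have no value. *PTGER4* had 44.9 in mock, 31.2 with *miR-139-5p* and 3.49 on the *miR-139-3p* array, where it was not well above background, so it was at least 9.01-fold lower than mock, a log2 value of -3.17 that normexp brought to -0.60. *PTGER2* had 31.1 in mock, 31.7 with *miR-139-5p* and 11.8 on the *miR-139-3p* array, a log2 fold change of -1.19, and of -0.20 with normexp.

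With normexp, 2 of the pathway genes were higher with *miR-139-3p* in place of 18, and *LTB4R2* (0.49), *ACSL5* (0.48), *LTB4R* (0.42) and *OXER1* (0.17) were no longer past the threshold. For *miR-139-5p*, only 2 were then lower in place of 12 and 0 higher in place of 5. *EPHX1* stayed at -1.15, while *ACSL5* (-0.37), *PTGDS* (-0.33), *LTB4R* (-0.31) and *CYP4F12* (-0.44) no longer passed.

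**Figure D4:**
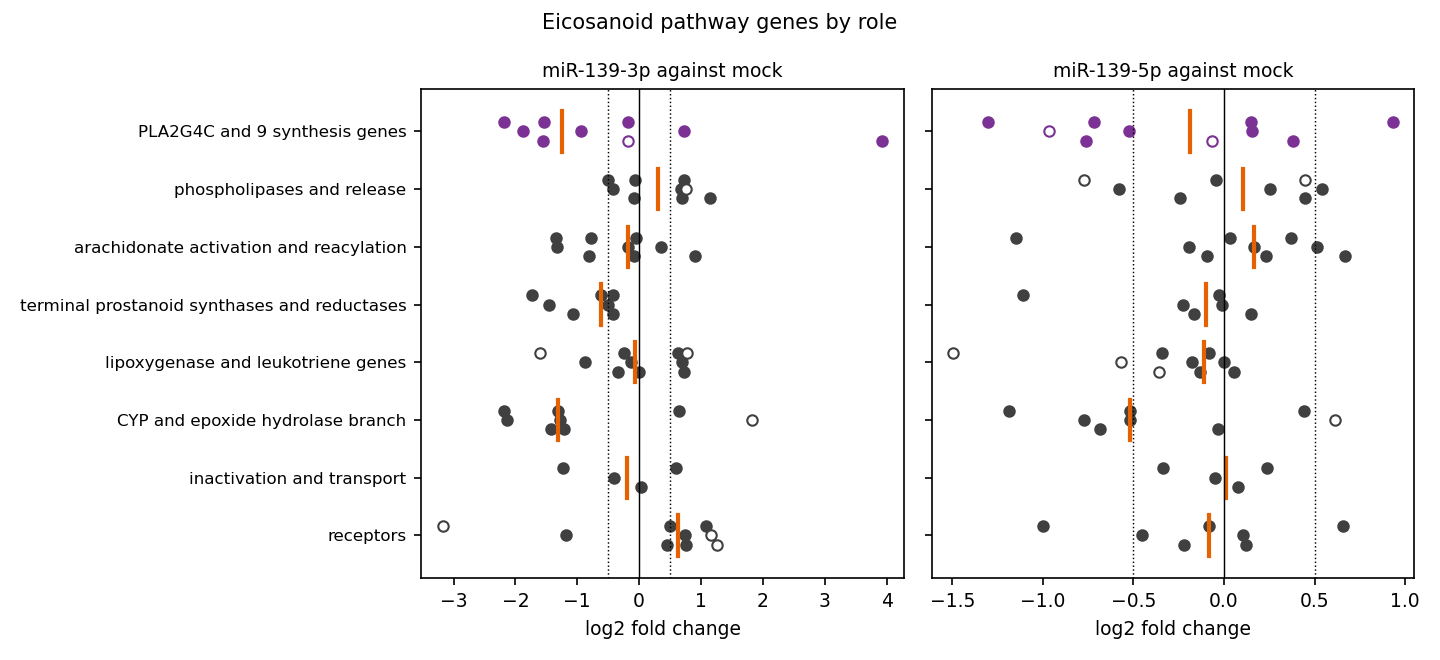
Log2 fold change against mock of the members (purple) and of the other pathway genes by role (grey), for *miR-139-3p* (left) and *miR-139-5p* (right, on a narrower scale), 1 point per gene, open where the value is a bound, with the median of the measured genes as an orange bar and dotted lines at 0.5 and -0.5. The median of the cytochrome P450 and epoxide hydrolase genes lay at -1.30 on the left and -0.52 on the right, and that of the receptors at 0.62 and -0.08.

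The scaling of the arrays moved all genes together. For *miR-139-3p* against mock, the median of all genes rose by 0.17 when the 75th percentile was taken over probes well above background on all arrays, and fell by 0.21 with no scaling and by 0.24 with the E1A scaling by the median difference over probes. With the E1A scaling planned beforehand, this median rose by 0.07, so the E1A scalings differed in direction. For *miR-139-5p* it rose by 0.13 with either E1A scaling. The share of higher genes among those past the threshold thereby moved from 48.8% to 60.9%, 34.2% and 32.1% for *miR-139-3p*, and from 46.6% to 68.1% for *miR-139-5p*. With the E1A scaling planned beforehand, this share was 54.0% for *miR-139-3p*.

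Over both comparisons with mock, the genes whose log2 fold changes lay nearest to those of *PLA2G4C* (smallest Euclidean distance, 12319 protein-coding genes well above background on all 3 arrays) were *TP53INP1*, *GRIN2C* and *SHC2*. *TP53INP1*, at 3.21 in the *miR-139-3p* comparison and -1.51 in the other, had a distance of 0.75. *GRIN2C*, at 4.69 and -1.55, had 0.80, and *SHC2*, at 3.57 and -0.56, had 0.83. Such a distance over 3 arrays that share mock is a description of these arrays.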

How the data were processed

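The deposited scanner files give spot intensities from Feature Extraction 12.1.1.1, background subtracted and not normalized between arrays. A deposited table gives log2 values by probe, which followed the log2 scanner signals (r between 0.999 and 1.00 by array) with a median of 2.21 on each array, as after quantile normalization. Here, the log2 of each spot's signal minus that of the 75th percentile of the array was taken. Outlier spots (614 on mock, 935 on *miR-139-5p*, 1526 on *miR-139-3p*) were left out and spots of one probe averaged. A probe was well above background where at least 50% of its spots were. A gene's value averages those of its probes that were well above background on each array compared, or is otherwise a bound. Genes were named through RefSeq accessions (assembly GRCh38.p14). The array design uses another build, and gene coordinates are therefore left out.

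The members and lists were chosen with earlier results of these data known. Named were all members, the 5 lowest and up to 5 highest measured pathway genes past 0.5 in each comparison with mock, and the 3 genes nearest to *PLA2G4C*; exceptions are marked. Of the cell type markers, 1 is not reported here. Alternatives changed the threshold, the scaling, the background correction, the probe used, the treatment of dim or outlier spots, or took the deposited log2 values. The steps were tested on simulated data. Python 3.11.15, numpy 2.4.6, pandas 2.3.3, matplotlib 3.10.9, R 4.3.3 and limma 3.58.1 (normexp) were used.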

Additional observations from a re-analysis of the deposited data

How the results depend on the processing

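In all, 11 alternatives were run, 1 of them, the E1A spike-in scaling by the median difference over probes, chosen after seeing the data. For normexp, median spot signals took the place of the planned means. No paired analysis was possible because each condition had 1 array and the results come from no test. Values count as moved past the median SD between a gene's probes, and counts past 1.5 times. Of the counts, medians and values of *PLA2G4C*, 178 stayed and 44 moved; of the values of the other members and of the pathway genes named, 481 stayed, 91 moved (38 farther from 0, 53 nearer) and 4 reversed. With no filter on dim probes, which brings in their dimmer probes, *PLA2G4F* with *miR-139-5p* went from 0.54 to -0.26, and *CYP4F2* with *miR-139-3p* from -1.22 to 0.81 against mock and from -0.69 to 1.40 against *miR-139-5p*. In the deposited log2 values *PLA2G10*, a secreted phospholipase A2 named after its values were seen, with *miR-139-3p* went from 0.73 to -0.035. A higher threshold lowers counts by construction; the cause of other moves was not tested.

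For *miR-139-3p* against mock, normexp gave 2.28 for *PLA2G4C* (3.93), a member median of -0.73 (-1.24) and 2 pathway genes higher (18). The number of members higher (2) was 1 with the added E1A scaling and with a threshold of 1. The member median was -1.54 with no filter, -0.94 with outlier spots kept and -0.95 in the deposited log2 values. The pathway genes higher were 10 with quantile normalization, the added E1A scaling and the deposited values, and 5 with a threshold of 1; the pathway median (-0.25) was 0.054 with no filter.

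For *miR-139-5p* against mock, normexp gave -0.22 for *PLA2G4C* (-1.30), 1 member lower (5), and 2 lower (12) and 0 higher (5) pathway genes. A threshold of 1 gave 1 member lower and 0 higher (1), and 5 pathway genes lower and 0 higher. Both E1A scalings gave 2 members and 8 pathway genes higher, and no scaling gave 3 pathway genes higher. With no filter the member median (-0.19) was -0.62 and 19 pathway genes were lower.

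For *miR-139-3p* against *miR-139-5p*, normexp gave 2.50 for *PLA2G4C* (5.23), a member median of -0.59 (-1.05), 1 member higher (2), and 10 lower (21) and 3 higher (17) pathway genes. The added E1A scaling gave 4.87 for *PLA2G4C*, medians of -1.42 for the members and -0.54 for the pathway (-0.17), 1 member higher and 11 pathway genes higher. No scaling and a threshold of 1 each gave 1 member higher. The threshold of 1 gave 12 pathway genes lower and 10 higher, quantile normalization 11 higher, and no filter 29 higher.

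Signal over background limits *PTGS1* and, with *miR-139-5p*, *ALOX5*, and an outlier spot leaves *ALOX5* without a value with *miR-139-3p*. Normexp moved *PLA2G4C* and *PTGES* toward 0 in each comparison, as well as *ALOX5* (-0.97 to -0.10, inside the threshold) and *HPGD* (0.93 to 0.72) with *miR-139-5p*, *PLA2G4A* with *miR-139-3p* against mock (-1.88 to -1.51) and against *miR-139-5p* (-2.26 to -1.84), and *PTGS2* in the latter (-1.09 to -0.81).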
